A study of Mus musculus with 6 samples.

Results

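The genes described here encode the subunits, caps and assembly factors of the proteasome in bulk RNA-seq of the mouse prostate. They were chosen by symbol: Psma, Psmb, Psmc, Psmd, Psme, Psmf or Psmg followed by a number, without the interferon-inducible subunits Psmb8, Psmb9 and Psmb10, and with FPKM averaging 1 or more over the 6 libraries. FPKM count the sequenced fragments of a gene relative to the length of its transcript and to the mapped reads in that library. Of the 24908 genes listed, 47 carry such a symbol and 45 passed the level filter, among 12361 genes that passed it in all. The lowest that passed were Psme2b at a mean of 2.95 FPKM and Psmd9 at 4.58 FPKM. Below the filter were Psma8, the testis-specific core subunit, at 0.0262 FPKM and Psmb11, the thymus-specific catalytic subunit, at 0.00285 FPKM. Of the 45, Psmc3ip encodes a meiotic recombination factor and not a proteasome subunit, and Psme2b is a copy of Psme2. The other 43 are proteasome genes.

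The study compared a wild-type male (WT) with a littermate heterozygous for the Hi-MYC transgene (MYC), in which the ARR2Pb promoter drives human c-MYC in the prostate epithelium. Both mice were of the FVB strain, 12 weeks old and on a purified diet after weaning, and each gave the ventral (VP), dorsolateral (DLP) and anterior (AP) prostate. Each of the 6 libraries is 1 lobe of 1 animal, dissociated to single cells before RNA extraction. There is no replicate of any group, genotype and animal cannot be told apart, and the 3 lobes of a genotype share their animal.

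The gene listed as Myc, whose human and mouse reads are not separated, had 226, 201 and 230.0 FPKM in WT VP, DLP and AP, and 1696, 586 and 231 FPKM in MYC VP, DLP and AP. The level was thus higher in MYC in VP and DLP, while the AP library labelled MYC showed no excess, so that this gene does not check its label. The luminal keratins Krt8 and Krt18 summed to between 835 and 2903 FPKM in every WT and MYC library (MYC AP was the lowest and WT VP the highest). Genes of the seminal vesicle, an organ next to the AP, summed to 524 FPKM in MYC AP, 11.3 FPKM in MYC DLP and at most 0.186 FPKM in the others, and their part in the AP values was not tested. Estimated depth was 25.5 M mapped reads in WT AP and between 34.8 and 50.3 M in the rest.

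The proteasome is the protease that degrades most short-lived and misfolded proteins that a cell has tagged with ubiquitin. Its barrel-shaped core stacks outer rings of alpha subunits, which gate the entrance, on inner rings of beta subunits, of which the products of Psmb5, Psmb6 and Psmb7 cut proteins. The 19S cap docks on the core: its base holds a ring of ATPases that unfold the substrate, and its lid holds the deubiquitinase that removes the tag. Other caps, PA28 and PA200, open the core without ubiquitin. Dedicated chaperones, Psmg1 to Psmg4 for the core and Psmd5, Psmd9 and Psmd10 for the base, guide assembly. Cells that make and secrete much protein, as the prostate's luminal cells do, depend on it for quality control, and c-MYC is known as a driver of growth and protein synthesis.

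In VP, most proteasome genes were somewhat higher in MYC than in WT. The median log2 ratio, defined as log2((FPKM + 1) of MYC / (FPKM + 1) of WT), was 0.25 over the 45 genes, against 0.04 over all 12361 genes compared. Of the 45 genes, 39 (86.7%) had a log2 ratio above 0, against 53.2% of all genes, and this count depends on the scaling of the libraries, falling to 22 with equal FPKM sums without the 20 highest genes and reaching 43 relative to Krt8 and Krt18. The median over proteasome genes stayed 0.16 to 0.21 above the median of all genes under these scalings. The genes also lay close together, with a standard deviation over genes of 0.33 against 0.79 for all genes. In bulk tissue, a change in the share of cells of a type and a change in RNA per cell cannot be told apart.

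The excess over all genes was smaller in DLP, at 0.14, and in AP, at 0.04. It fell to 0.05 in DLP against genes of similar transcript length, and in AP it was 0.12 among genes averaging 10 FPKM or more and 0.16 with no filter on level. The median was 0.17 in DLP, where that of all genes was 0.03, and 36 of the 45 genes (80%) were above 0, against 53.5% of all genes. Relative to Krt8 and Krt18 the DLP median was -0.06, since that scaling moved the median of all genes to -0.20, and 15 of the 45 genes were above 0. With equal sums without the 20 highest genes, 25 were. In AP the median was 0.17 against 0.13 for all genes, and 35 of 45 (77.8%) were above 0, against 66.4% of all genes, a count that ran from 26 with size factors to 43 relative to Krt8 and Krt18. AP is the lobe in which listed Myc was 230.0 FPKM in WT and 231 FPKM in the library labelled MYC.

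Large changes were rare among them, by calls on the log2 ratio with its pseudocount of 1. In VP, 1 of the 45 genes was at least 2-fold higher (Psma5), where 6.88% of all genes were, and 0 were at least 2-fold lower, where 5.95% were. In DLP and AP none passed 2-fold in either direction, where 6.46% (DLP) and 2.05% (AP) of all genes were higher and 3.39% and 0.599% lower. At 1.5-fold, 7 genes were higher in VP (15.6%, all genes 16.7%), namely Psma5, Psma7, Psmb1, Psmb3, Psmg1, Psmg3 and Psmg4. At the same fold 5 were higher in DLP (11.1%, all genes 13.4%), namely Psma5, Psmb3, Psme1, Psme2 and Psme2b. On FPKM without the pseudocount, Psme2b was 2.09-fold and Psmd10 1.56-fold higher in DLP. None was higher at 1.5-fold in AP (all genes 7.53%), and none was 1.5-fold lower in any lobe, against 14.9%, 9.44% and 3.13% of all genes in VP, DLP and AP. The 1.5-fold shares in VP and DLP lie near those of all genes, so that the proteasome genes stood apart by a narrow shift and not by a large number of big changes.

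**Figure D1:**
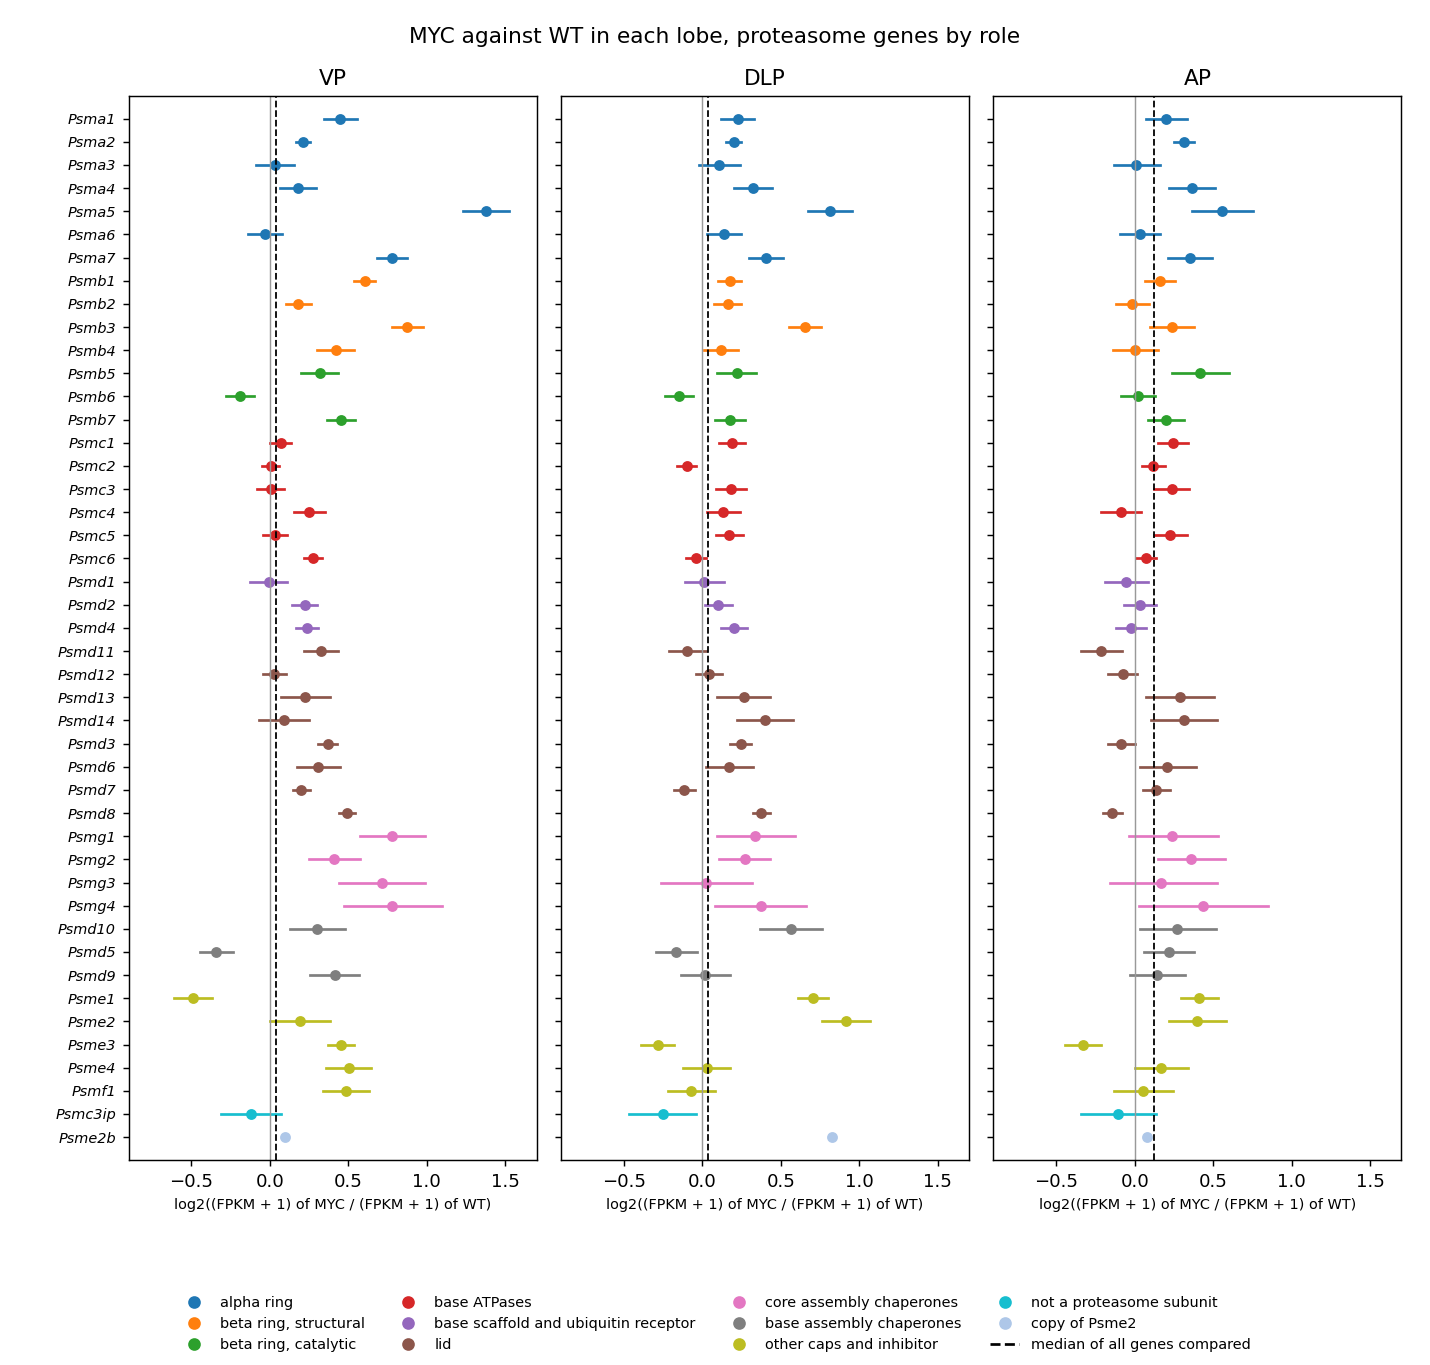
Each point is the log2 ratio of MYC to WT (horizontal axis, log2 of FPKM + 1) of 1 of the 45 genes in VP, DLP and AP, coloured by role, 1 library per group. Horizontal lines are exact 95% counting intervals carried to this scale (none for Psme2b), which leave out the difference between animals, and the dashed line is the median of all 12361 genes compared. Psma5 is the highest in VP at 1.38, and Psme1 the lowest at -0.49.

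Counting error is small beside many of these differences. The reads behind a value, estimated from its FPKM, its transcript length and the depth, ranged from 57.7 (Psmg4 in WT AP) to 8071 (Psma2 in WT VP). The exact 95% interval of the MYC to WT ratio excluded 1 for 34 of the 44 genes with a known length in VP, of which 31 were higher and 3 lower in MYC (Psmb6, Psmd5 and Psme1). That is 77.3% of them, against 78.1% of all genes with a length, so the share is near the background, while 70.5% lay above 1 against 41.9% of all. In DLP it excluded 1 for 35 genes (79.5%, all genes 70.6%), of which 29 were higher (65.9%, all genes 39.2%) and 6 lower. In AP it did so for 29 (65.9%, all genes 61.3%), of which 25 were higher (56.8%, all genes 43.3%) and 4 lower. These intervals cover the sampling of reads only, and not the spread between animals. Reads may also belong to neighbours: in GENCODE M1 the spans of Psmc3, Psmd1 and Psma3 overlap another gene by at least 4579 bases, and the values of such genes are uncertain to that extent.

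The core as a whole had a higher VP median than the 19S cap, but the alpha ring within it did not. The 14 core subunits had medians of 0.37, 0.19 and 0.20 in VP, DLP and AP. The 17 subunits of the 19S cap had 0.22, 0.17 and 0.07. Within the core, VP medians were 0.21 for the alpha ring, 0.51 for the structural beta subunits and 0.32 for the catalytic ones. Within the cap, they were 0.05 for the base ATPases, 0.22 for the scaffold and ubiquitin receptor and 0.27 for the lid. Against the median of all genes the core lay 0.33, 0.15 and 0.07 higher in VP, DLP and AP, and the cap 0.18 and 0.14 higher in VP and DLP but at -0.05 in AP. These signs were the same in each of 6 settings, which were the values as deposited, 4 other scalings and one that set every gene against genes of similar transcript length. In that last setting the gaps were smaller, at 0.22 in VP and 0.09 in DLP for the core and 0.07 and 0.05 for the cap. The sum of the core subunits went from 728 FPKM in WT VP to 944 FPKM in MYC VP, from 766 to 893 FPKM in DLP and from 593 to 668 FPKM in AP. As a share of the FPKM sum of the library, the core went from 0.178% to 0.195% in VP, 0.177% to 0.199% in DLP and 0.158% to 0.176% in AP. The share of the 19S cap went from 0.189% to 0.185% in VP, 0.164% to 0.175% in DLP and 0.175% to 0.178% in AP.

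**Figure D2:**
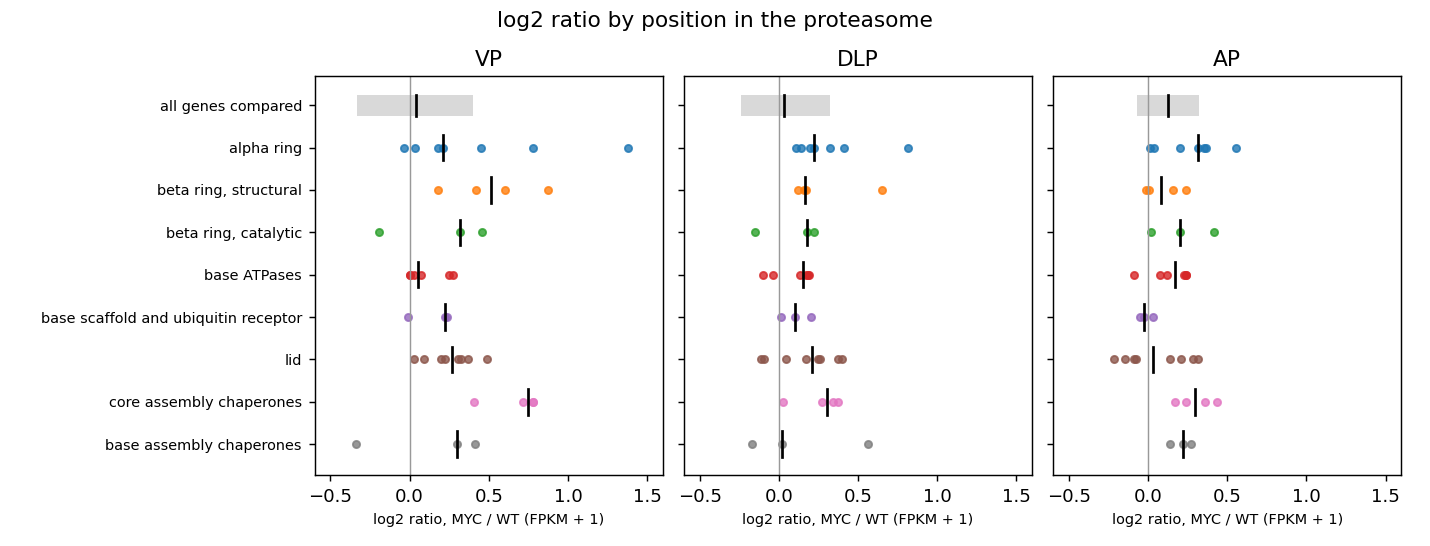
Points are the log2 ratios of MYC to WT (horizontal axis, log2 of FPKM + 1) of single genes, grouped by their place in the proteasome, in each lobe, and black ticks are group medians. The grey bar runs from the lower to the upper quartile of all 12361 genes compared. In VP the core assembly chaperones have the highest median, 0.75, and the base ATPases the lowest, 0.05.

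Psma5, which encodes the alpha 5 subunit of the gate ring (chr3:108256926-108279952, GRCm38), had the highest log2 ratio of the 45 genes in VP and AP. Its level was 17.9 FPKM (WT) and 48.1 FPKM (MYC) in VP, 23.4 and 41.8 FPKM in DLP, and 17.1 and 25.7 FPKM in AP. All 3 MYC libraries lay above all 3 WT libraries. The ratio was 2.69-fold in VP (95% counting interval 2.42 to 2.98), 1.79-fold in DLP (1.62 to 1.98) and 1.497-fold in AP (1.3 to 1.73). Psma5 was the core subunit with the lowest FPKM in each WT library, a place that Psma3 took in each MYC library. RefSeq annotates a pseudogene copy of Psma5, and of Psmb5, Psmb6 and Psmb7, with no row of their own in the table, so that how the authors' quantification divided shared reads is uncertain.

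Psma7, the alpha 4 subunit, followed in the alpha ring, with 51.2 FPKM (WT) and 88.6 FPKM (MYC) in VP, 52.4 and 69.9 FPKM in DLP, and 40.0 and 51.5 FPKM in AP. The MYC library was the higher in each lobe, though MYC AP lay between WT VP and WT DLP. Its log2 ratios were 0.78, 0.41 and 0.35 in VP, DLP and AP. The other alpha subunits, Psma1, Psma2, Psma3, Psma4 and Psma6, had log2 ratios between -0.03 (Psma6) and 0.45 (Psma1) in VP, 0.11 and 0.33 in DLP, and 0.01 and 0.36 in AP. Subunits of the same ring thus differed within VP from 0.976-fold (Psma6, counting interval 0.905 to 1.05) to the 2.69-fold of Psma5, though the ring holds the same number of each.

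Of the structural beta subunits, Psmb3 (chr11:97703434-97713500) differed most. It had 34.9 FPKM (WT) and 64.9 FPKM (MYC) in VP, 39.2 and 62.1 FPKM in DLP, and 29.6 and 35.1 FPKM in AP. MYC VP and MYC DLP stood well apart, and MYC AP lay within the range of the WT libraries. The ratio was 1.86-fold in VP (1.73 to 2.0), 1.59-fold in DLP (1.48 to 1.71) and 1.18-fold in AP (1.07 to 1.31). Psmb1 had 78.0 FPKM (WT) and 119 FPKM (MYC) in VP, with log2 ratios of 0.60, 0.17 and 0.16 in the 3 lobes. Psmb4 and Psmb2 had 0.42 and 0.18 in VP, 0.12 and 0.16 in DLP, and 0.01 and -0.01 in AP.

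The 3 subunits that cut proteins did not move as a group. Psmb5, the chymotrypsin-like subunit (chr14:54614120-54617995), had 34.2 FPKM (WT) and 42.9 FPKM (MYC) in VP, 36.3 and 42.4 FPKM in DLP, and 20.2 and 27.3 FPKM in AP. Its ratio was 1.25-fold in VP (1.15 to 1.36), 1.17-fold in DLP (1.07 to 1.28) and 1.35-fold in AP (1.19 to 1.54). Psmb7, the trypsin-like subunit (chr2:38588046-38643952), had 56.6 and 77.9 FPKM in VP, 59.6 and 67.6 FPKM in DLP, and 49.2 and 56.6 FPKM in AP. Both were higher in MYC in each lobe as deposited, but lower in DLP relative to Krt8 and Krt18, at -0.01 and -0.06.

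Psmb6, the caspase-like subunit (chr11:70525324-70527858), went the other way in VP and DLP. It had 87.4 FPKM (WT) and 76.4 FPKM (MYC) in VP, 89.2 and 80.4 FPKM in DLP, and 66.2 and 67.2 FPKM in AP. The ratio was 0.874-fold in VP (0.823 to 0.929), 0.901-fold in DLP (0.846 to 0.960) and 1.01-fold in AP (0.939 to 1.10). The sign in VP turned relative to Krt8 and Krt18 (0.07), and that in AP under 4 of the alternatives. Within VP, the gap between Psmb6 and Psmb7 does not hang on the scaling: their log2 ratios were -0.19 and 0.45 in the same pair of libraries.

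Over all 14 core subunits, Psma5 included, levels spread less in MYC. The highest core subunit had 5.78 times the FPKM of the lowest in WT VP and 4.57 times in MYC VP, 4.32 and 4.27 times in DLP, and 4.72 and 3.22 times in AP. The standard deviation of log2(FPKM + 1) over the 14 subunits was 0.68 and 0.58 in WT and MYC VP, 0.62 and 0.52 in DLP, and 0.62 and 0.52 in AP. Psmb2 was the highest in every library but MYC VP, where Psmb1 was. Psma5 weighs on the ranges: the next lowest in WT VP and WT DLP was Psma3. It had 25.5 FPKM (WT) and 26.1 FPKM (MYC) in VP, and 24.4 and 26.4 FPKM in DLP. The highest subunit went from 103 to 119 FPKM in VP and from 101 to 113 FPKM in DLP. Without Psma5 the range was thus no narrower in MYC in VP or DLP. The 19S cap had standard deviations of 0.60 and 0.64 in VP, 0.57 and 0.58 in DLP, and 0.65 and 0.60 in AP.

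The RefSeq promoters (GRCm38.p6) of 38 of the genes were searched on both strands, from 250 bases before to 50 after the start, for 3 short motifs. These were CACGTG, the E-box that MYC binds with MAX, TGACNNNGC, the core of the element through which NFE2L1 activates proteasome genes, and CCAAT, bound by NF-Y. The 100 bases before the start are shown for the 4 genes on which the results most turn: the most changed core gene, a structural and a catalytic core subunit, and a cap gene with opposite directions between lobes. Capitals mark a match to any of the 3 motifs on either strand (in Psme3 the reverse of CCAAT reads ATTGG), and each sequence runs 5′ to 3′ on its gene's strand.
Psma5, chr3:108256826-108256925, plus strand: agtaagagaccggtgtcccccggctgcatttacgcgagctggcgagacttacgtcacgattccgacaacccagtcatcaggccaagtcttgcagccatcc
Psmb3, chr11:97703334-97703433, plus strand: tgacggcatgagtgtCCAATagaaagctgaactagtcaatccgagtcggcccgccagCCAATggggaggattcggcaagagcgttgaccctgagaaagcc
Psmb5, chr14:54617996-54618095, minus strand: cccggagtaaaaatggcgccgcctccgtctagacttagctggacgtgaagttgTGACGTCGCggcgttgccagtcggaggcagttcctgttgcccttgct
Psme3, chr11:101316113-101316212, plus strand: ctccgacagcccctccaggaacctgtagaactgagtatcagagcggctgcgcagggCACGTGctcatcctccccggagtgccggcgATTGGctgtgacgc

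Psma5, the most changed gene in VP and AP, held none of the 3 motifs, here or in the full window. Psmb3 held CCAAT 85 and 43 bases before the start, and Psmb5 held TGACNNNGC 47 bases before it. Psme3 held CACGTG 44 bases and CCAAT 14 bases before it. Over the full windows, CACGTG was in 3 of the 41 promoters of these genes (7.32%), in Psma4, Psmd9 and Psme3, against 9.99% of the 12265 promoters of genes compared and 7.15% of all 32851 promoters. TGACNNNGC was in 6 (14.6%), in Psmb5, Psmb6, Psmc6, Psmd9, Psmd12 and Psme4, against 14.3% and 12.4%. CCAAT was in 13 (31.7%), against 37.1% and 37.4%. A match is not a binding site, and the absence of the letters from this window says nothing of the factor.

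The 6 ATPases of the base, which unfold substrates, had small ratios in VP. Psmc2, Psmc3 and Psmc5 had ratios of 1.003, 1.003 and 1.02 in VP, with counting intervals that include 1. Those of Psmc1, Psmc4 and Psmc6 were 1.05 (1.002 to 1.10), 1.19 (1.11 to 1.28) and 1.21 (1.17 to 1.26), above 1. The log2 ratios of the 6 ran from 0.00 (Psmc3) to 0.27 (Psmc6) in VP, with a median of 0.05 against 0.04 for all genes, and the sign of that gap changed with the scaling. They ran from -0.10 (Psmc2) to 0.19 (Psmc1) in DLP, and from -0.09 (Psmc4) to 0.24 (Psmc1) in AP. The levels of the ring were even, from 40.2 to 62.3 FPKM in WT VP and from 46.8 to 62.4 FPKM in MYC VP.

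Of the scaffold subunits Psmd1 and Psmd2 and the ubiquitin receptor Psmd4, Psmd1 was nearly level. It had 25.6 FPKM (WT) and 25.5 FPKM (MYC) in VP, 25.9 and 26.1 FPKM in DLP, and 25.6 and 24.6 FPKM in AP. No library stood apart, and its ratio was 0.994 in VP (0.914 to 1.08), 1.01 in DLP (0.922 to 1.10) and 0.962 in AP (0.871 to 1.06). Psmd2 and Psmd4 had log2 ratios of 0.22 and 0.24 in VP, 0.10 and 0.20 in DLP, and 0.03 and -0.02 in AP.

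All 8 lid subunits were above 0 in VP (0.03 to 0.49, median 0.27), 6 of 8 in DLP (median 0.21) and 4 of 8 in AP (median 0.03), where 53.2%, 53.5% and 66.4% of all genes were, so that the AP count lies below its background. The lid median lay 0.22 and 0.17 above that of all genes in VP and DLP and at -0.10 from it in AP, with the same signs in each of the 6 settings (0.14 and 0.09 in VP and DLP against genes of similar length). Psmd8, the lid subunit with the highest FPKM in every library (chr7:29174187-29180673), had 84.6 FPKM (WT) and 119 FPKM (MYC) in VP, 87.3 and 114 FPKM in DLP, and 105 and 94.8 FPKM in AP. The MYC library was the higher in VP and DLP, while in AP the WT library was, except relative to Krt8 and Krt18 (0.03). The ratio was 1.41-fold in VP (1.36 to 1.46), 1.30-fold in DLP (1.25 to 1.35) and 0.905-fold in AP (0.868 to 0.943).

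Psmd11, which stabilises the junction of lid and base, had a like order, with 25.9 FPKM (WT) and 32.8 FPKM (MYC) in VP, 31.1 and 29.1 FPKM in DLP, and 28.1 and 24.1 FPKM in AP. The ratio was 1.26-fold in VP (1.17 to 1.37), 0.934-fold in DLP (0.86 to 1.02) and 0.858-fold in AP (0.780 to 0.946). Psmd14, the deubiquitinase of the lid, had 1.07-fold in VP (0.951 to 1.19), 1.33-fold in DLP (1.17 to 1.52) and 1.25-fold in AP (1.08 to 1.46). So even within the lid the lobes did not rank the subunits alike. Psmd3, Psmd6, Psmd7, Psmd12 and Psmd13 lay between 0.03 and 0.37 in VP, -0.11 and 0.26 in DLP, and -0.09 and 0.29 in AP.

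The core assembly chaperones had the highest median of any group in VP. Psmg1, which with Psmg2 holds the first alpha subunits together, had 10.1 FPKM (WT) and 18.1 FPKM (MYC) in VP, 8.44 and 10.9 FPKM in DLP, and 8.13 and 9.78 FPKM in AP. Psmg2 had 10.9 and 14.8 FPKM in VP, 12.9 and 15.8 FPKM in DLP, and 8.76 and 11.5 FPKM in AP. The MYC library was the higher in each lobe for both, and MYC VP was the highest of the 6 for Psmg1.

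Psmg3 and Psmg4 form the other chaperone pair of the alpha ring. Psmg3 had 4.71 FPKM (WT) and 8.38 FPKM (MYC) in VP, 5.53 and 5.64 FPKM in DLP, and 4.54 and 5.23 FPKM in AP. Psmg4 had 8.02 and 14.5 FPKM in VP, 12.3 and 16.3 FPKM in DLP, and 7.20 and 10.1 FPKM in AP. MYC VP stood apart for Psmg3, while Psmg4 was also high in both DLP libraries.

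In VP the ratios were 1.79-fold for Psmg1 (1.54 to 2.08), 1.36-fold for Psmg2 (1.21 to 1.53), 1.78-fold for Psmg3 (1.43 to 2.2) and 1.80-fold for Psmg4 (1.43 to 2.29). The interval of Psmg2 lies below that of Psmg1, and the other intervals overlap. Their median log2 ratio was 0.75 in VP, 0.30 in DLP and 0.30 in AP, which is 0.71, 0.27 and 0.17 above all genes. It stayed above in each of the 6 settings, and was 0.56, 0.19 and 0.17 above genes of similar length. In DLP the sign of Psmg3 turned under 5 alternatives, and its counting interval includes 1 there (0.802 to 1.29).

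The chaperones of the base did not share a direction in VP or DLP, while in AP all 3 were above 0. Psmd5 (chr2:34852087-34870965) had 17.8 FPKM (WT) and 13.9 FPKM (MYC) in VP, 12.0 and 10.6 FPKM in DLP, and 8.25 and 9.76 FPKM in AP. It was lower in MYC in VP and DLP and higher in AP, with ratios of 0.778-fold (0.718 to 0.842), 0.882-fold (0.799 to 0.974) and 1.18-fold (1.05 to 1.34). Psmd10, also known as gankyrin, had 7.19 and 9.09 FPKM in VP, 5.56 and 8.70 FPKM in DLP, and 4.82 and 6.02 FPKM in AP, with its highest ratio in DLP (1.56-fold, 1.34 to 1.83). Psmd9 had log2 ratios of 0.41, 0.02 and 0.14 in VP, DLP and AP.

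**Figure D3:**
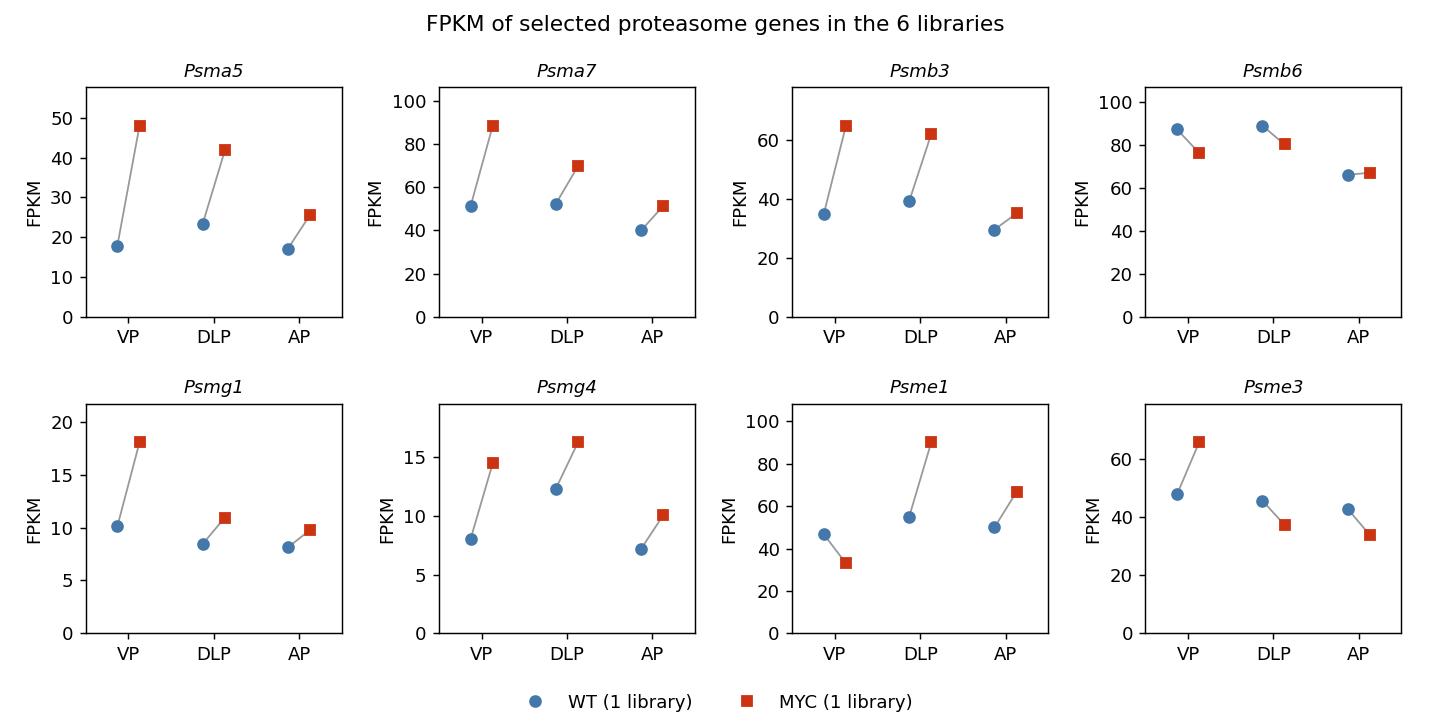
FPKM (vertical axis from 0, a scale per gene) of 8 genes in the 6 libraries by lobe, WT as blue circles and MYC as red squares, joined within a lobe, with 1 library per point and so no error bar. Psma5 runs from 17.9 to 48.1 FPKM in VP, and Psme1 and Psme3 slope in opposite directions in VP and in the other lobes.

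Among the alternative caps the direction differed between lobes. Psme1 (chr14:55578494-55581527) and Psme2 encode PA28 alpha and beta, the interferon-inducible activator that favours antigenic peptides. Psme1 had 46.7 FPKM (WT) and 33.0 FPKM (MYC) in VP, 54.9 and 90.2 FPKM in DLP, and 49.95 and 66.8 FPKM in AP. MYC VP was the lowest of the 6 libraries and MYC DLP the highest. The ratio was 0.706-fold in VP (0.648 to 0.768), 1.64-fold in DLP (1.54 to 1.76) and 1.34-fold in AP (1.23 to 1.45), and none of these signs changed under any alternative.

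Psme2 had 20.7 FPKM (WT) and 23.8 FPKM (MYC) in VP, 29.98 and 57.5 FPKM in DLP, and 31.3 and 41.4 FPKM in AP. MYC DLP was the highest, and both VP libraries were the lowest. The ratio was 1.15-fold in VP (0.998 to 1.32), 1.92-fold in DLP (1.72 to 2.13) and 1.33-fold in AP (1.17 to 1.51), and the sign in VP turned with equal FPKM sums. Its copy Psme2b had 1.89 and 2.09 FPKM in VP, 2.46 and 5.15 FPKM in DLP, and 2.94 and 3.15 FPKM in AP. That is 0.0760 to 0.0940 of the FPKM of Psme2 in every library, and the division of reads between the copies is uncertain.

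Psme3 (chr11:101316213-101323537) encodes PA28 gamma, the nuclear activator that is not part of the interferon response. It had 47.7 FPKM (WT) and 65.6 FPKM (MYC) in VP, 45.6 and 37.2 FPKM in DLP, and 42.7 and 33.8 FPKM in AP. MYC VP was the highest of the 6 libraries, and MYC AP and MYC DLP were the lowest. The ratio was 1.38-fold in VP (1.30 to 1.46), 0.817-fold in DLP (0.758 to 0.881) and 0.791-fold in AP (0.728 to 0.859), and no alternative changed these signs. The ratio of Psme3 to Psme1 was 1.02, 0.830 and 0.855 in WT VP, DLP and AP, and 1.99, 0.413 and 0.506 in MYC.

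Psme4, the PA200 cap, had 10.4 FPKM (WT) and 15.2 FPKM (MYC) in VP, 12.99 and 13.3 FPKM in DLP, and 11.5 and 13.05 FPKM in AP. The inhibitor Psmf1, which binds the core in place of a cap, had 4.61 and 6.83 FPKM in VP, 6.06 and 5.72 FPKM in DLP, and 3.90 and 4.07 FPKM in AP. For both, MYC VP was the highest library, at 1.46-fold (1.31 to 1.62) and 1.48-fold (1.32 to 1.67) of WT VP. In DLP and AP the intervals of Psmf1 include 1.

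Psmc3ip, which is no proteasome subunit, had 10.6 and 9.63 FPKM in VP, 9.79 and 8.07 FPKM in DLP, and 8.58 and 7.92 FPKM in AP. As deposited it was the one gene of the 45 whose log2 ratio was below 0 in all 3 lobes. Relative to Krt8 and Krt18 its sign turned in VP and AP, and under 4 other alternatives Psmb6 was below 0 in all 3 lobes too. Without it the medians were 0.26, 0.18 and 0.17 in VP, DLP and AP.

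The inducible subunits Psmb8, Psmb9 and Psmb10, which replace Psmb5, Psmb6 and Psmb7 in the immunoproteasome, were compared because they share a barrel with the genes above. Psmb8 had 8.59 FPKM (WT) and 11.5 FPKM (MYC) in VP, 14.2 and 37.8 FPKM in DLP, and 13.3 and 21.8 FPKM in AP. Psmb9 had 4.26 and 6.25 FPKM in VP, 6.68 and 17.5 FPKM in DLP, and 7.11 and 10.1 FPKM in AP. Psmb10 had 6.75 and 6.13 FPKM in VP, 9.50 and 15.1 FPKM in DLP, and 7.46 and 10.8 FPKM in AP. MYC DLP was the highest library for all 3 genes, and their log2 ratios there were 1.35, 1.27 and 0.62, above those of Psmb5, Psmb6 and Psmb7 (0.22, -0.15 and 0.18).

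**Figure D4:**
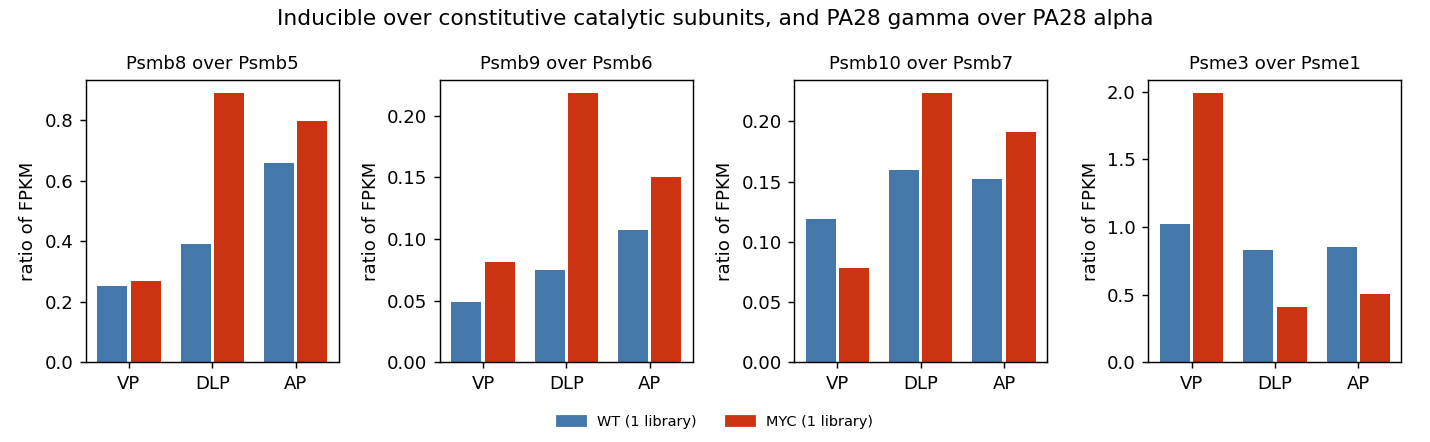
Bars from 0 give the ratio of FPKM of an inducible catalytic subunit to the constitutive one it replaces, and of Psme3 to Psme1, in WT (blue) and MYC (red) by lobe, 1 library per bar and so no error bar. Psmb8 over Psmb5 goes from 0.392 to 0.890 in DLP and from 0.251 to 0.268 in VP.

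The ratio of Psmb8 to Psmb5 was 0.251 in WT VP and 0.268 in MYC VP, 0.392 and 0.890 in DLP, and 0.657 and 0.798 in AP. That of Psmb9 to Psmb6 was 0.0488 and 0.0818 in VP, 0.0748 and 0.218 in DLP, and 0.107 and 0.15 in AP. That of Psmb10 to Psmb7 was 0.119 and 0.0787 in VP, 0.159 and 0.224 in DLP, and 0.152 and 0.191 in AP. The constitutive subunit had the higher FPKM in every library and pair, and the gap was narrowest for Psmb8 and Psmb5 in MYC DLP.

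Genes of immune cells moved with these values in DLP, but not throughout in VP and AP. The 15 hematopoietic markers found, with no filter on level, summed to 191 FPKM (WT) and 502 FPKM (MYC) in VP, 392 and 1549 FPKM in DLP, and 812 and 556 FPKM in AP. All 15 were higher in MYC DLP than in WT DLP, where 53.5% of all genes compared were. In AP the markers summed to less in MYC, while Psmb8, Psmb9, Psmb10, Psme1 and Psme2 were higher. In VP the markers summed to more in MYC, while Psmb10 and Psme1 were lower. Of 16 interferon-stimulated genes, 14, 15 and 15 were above 0 in VP, DLP and AP, where 53.2%, 53.5% and 66.4% of all genes were. The medians of the 16 were 0.99, 1.24 and 0.33, against 0.04, 0.03 and 0.13 for all genes. B2m, the light chain of MHC class I, was at -1.37, -0.99 and 0.02. The 16 genes summed to between 2782 and 4937 FPKM in WT and between 1401 and 2889 FPKM in MYC, most of it B2m. Their part in the values of Psme1, Psme2 and Psmb8 to Psmb10 was not tested.

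Basal, fibroblast and smooth muscle markers differed between genotypes too, while endothelial markers lay near all genes, whose medians were 0.04, 0.03 and 0.13. Basal markers had medians of -0.59, 0.32 and -0.41 in VP, DLP and AP, fibroblast markers -1.11, -0.48 and 0.36, smooth muscle markers -0.81, -0.81 and 0.60, and endothelial markers 0.09, 0.13 and 0.10. Within a list the genes did not all move alike. Of the 10 fibroblast markers, 1, 3 and 9 were above 0 in VP, DLP and AP, and they ran from -1.81 to 2.03 in DLP. Of the 8 basal markers 0, 6 and 2 were, with a range of -1.44 to 1.57 in AP. Of the 10 smooth muscle markers 1, 0 and 9 were above 0, and of the 10 endothelial markers 6, 7 and 8. Of all genes 53.2%, 53.5% and 66.4% were above 0 in VP, DLP and AP, so that the endothelial counts lie near the background. In WT and MYC the fibroblast markers summed to 756 and 238 FPKM in VP, 1571 and 888 FPKM in DLP, and 1468 and 1662 FPKM in AP. None of the fibroblast markers was at 0. The part of these cells in the proteasome medians was not tested.

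As deposited, 27 of the 45 genes were above 0 in all 3 lobes, where 29.9% of all genes compared were. Another 12 were above 0 in 2 lobes, 5 in 1 and 1 in none, where 27.5%, 28.7% and 14% of all genes were. The log2 ratio was highest in VP for 25 genes, in AP for 11 and in DLP for 9, while among all genes it was highest in VP for 34.5%, in AP for 42.3% and in DLP for 23.3%. Across the 45 genes the log2 ratios had a Pearson correlation of 0.29 between VP and DLP, 0.23 between VP and AP and 0.60 between DLP and AP. Over all genes the values were 0.52, 0.10 and 0.32. The points are genes of the same animals and not replicates, and all lobes of a genotype share their animal.

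Without any transgene the lobes already differed. In WT, VP lay above AP for 36 of the 45 genes (80%, median log2 ratio 0.23), against 48.8% of all genes and a median of -0.01. WT DLP lay above WT AP for 39 genes (86.7%, median 0.24), against 61.6% and 0.10. Between WT VP and WT DLP the median was -0.03, with 20 of 45 genes higher in VP, against -0.13 and 36.1% for all genes. WT AP thus lay below both other WT lobes in most proteasome genes taken lobe by lobe, and Psmd5 had the greatest excess of VP over AP in WT, at 1.02 on the log2 scale. In MYC, VP lay above AP for 42 of the 45 genes (93.3%, median 0.40), against 48.7% of all genes and a median of -0.02. These comparisons of lobes were made as deposited only, and such counts can depend on the scaling. All FPKM summed to 483143 in MYC VP and 380368 in MYC AP, and to 410188, 432828 and 374085 in WT VP, DLP and AP.

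The rest of the pathway was read from fixed lists. The 3 proteasome genes with other names found in the table, Adrm1 (a ubiquitin receptor), Sem1 (a lid subunit) and Pomp (the maturation factor of the core), had medians of 0.14, 0.14 and 0.27 in VP, DLP and AP. Pomp had 62.8 FPKM (WT) and 74.7 FPKM (MYC) in VP, 56.4 and 74.8 FPKM in DLP, and 39.0 and 53.1 FPKM in AP. The MYC library was the higher in each lobe for Pomp. Adrm1 was at 1.11-fold in VP (1.07 to 1.15), 0.952-fold in DLP (0.911 to 0.996) and 0.868-fold in AP (0.824 to 0.914). Sem1 had log2 ratios of -0.22, 0.14 and 0.27 in VP, DLP and AP. The 3 genes thus did not share a direction in any lobe.

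Of 11 proteasome-associated ubiquitin enzymes and adaptors, 8 were above 0 in VP, 6 in DLP and 6 in AP, with medians of 0.36, 0.01 and 0.04. Of all genes 53.2%, 53.5% and 66.4% were above 0, so that the count in DLP is near the background and that in AP below it. One of them was at least 2-fold higher in DLP and none in VP or AP, where 6.46% (DLP), 6.88% (VP) and 2.05% (AP) of all genes were. That one was Uchl5, a deubiquitinase docked on the cap, with 22.1 FPKM (WT) and 43.9 FPKM (MYC) in VP, 9.80 and 20.7 FPKM in DLP, and 6.88 and 12.2 FPKM in AP. Akirin2, which brings proteasomes into the nucleus, had 17.7 and 26.9 FPKM in VP, 15.5 and 23.2 FPKM in DLP, and 14.1 and 20.7 FPKM in AP. Both were higher in MYC in each lobe. Ubqln2, a shuttle for ubiquitinated proteins, had log2 ratios of -0.63, -0.47 and -0.08.

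Of the genes that encode ubiquitin, Rps27a, in which it is fused to a ribosomal protein, had 417 FPKM (WT) and 1021 FPKM (MYC) in VP. Its log2 ratios were 1.29 in VP, 0.62 in DLP and 0.33 in AP. The polyubiquitin gene Ubb had 441 and 457 FPKM in VP, with log2 ratios of 0.05, -0.06 and 0.01. The MYC library was thus far above the WT library for Rps27a in VP, and near it for Ubb.

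The transcription factors of proteasome genes and the enzymes that process them were not higher as a group. Of 11 such genes, 5 were above 0 in VP, 2 in DLP and 5 in AP, where 53.2%, 53.5% and 66.4% of all genes were. The medians of the 11 were -0.05, -0.13 and -0.05. None passed 2-fold, where 6.88%, 6.46% and 2.05% of all genes were higher and 5.95%, 3.39% and 0.599% lower. Nfe2l1, the factor that raises proteasome genes when proteasomes are blocked, had 103 FPKM (WT) and 118 FPKM (MYC) in VP, 78.1 and 71.7 FPKM in DLP, and 75.6 and 73.0 FPKM in AP. Nfe2l2, its relative of the oxidative stress response, had 81.5 and 52.7 FPKM in VP, 134 and 89.6 FPKM in DLP, and 138 and 112 FPKM in AP. It was the lower in MYC in each lobe, with log2 ratios of -0.62, -0.58 and -0.30.

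Transcript length moved with the log2 ratio over all genes in VP and DLP. In VP the median of all genes was 0.18 for transcripts of up to 750 bases and -0.08 for those over 5000 bases, and in DLP it was 0.15 and -0.08. In AP it was 0.18 for the shortest class and between 0.11 and 0.13 in the others. Most proteasome transcripts are short, and the medians of the proteasome genes in the length classes that held any were 0.20 to 0.31 in VP. Set against genes of similar length, the proteasome medians were 0.17 in VP, 0.05 in DLP and 0.04 in AP, with 31, 30 and 26 of 44 genes above 0. Among the proteasome genes themselves, the log2 ratio in VP had a Pearson correlation of -0.19 with length (44 genes) and of -0.15 with the level in WT DLP (45 genes). These are descriptions over genes, which share their libraries.

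**Figure D5:**
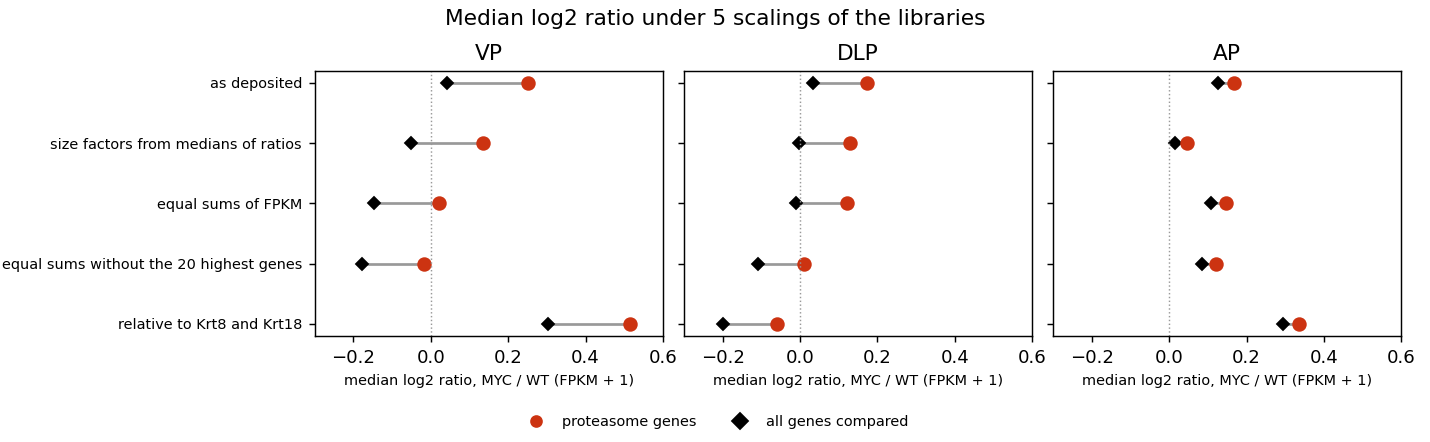
Median log2 ratio of MYC to WT (horizontal axis, log2 of FPKM + 1) over the 45 proteasome genes (red circles) and all 12361 genes compared (black diamonds) under 5 scalings of the libraries, by lobe, 1 library per group. Both medians move together, and the proteasome genes lie to the right of all genes in each case, by 0.21 in VP, 0.14 in DLP and 0.04 in AP as deposited.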

How the data were processed

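Bulk RNA-seq of 6 libraries was used, grouped by the genotype and lobe in the sample titles. Single-end reads of poly(A) RNA were mapped by the authors with STAR and quantified per gene with Cufflinks on mm10, after bcl2fastq 2.18, per the submitters' processing notes. The deposited values are FPKM, scaled by the authors to transcript length and mapped reads. The study's methods call them read counts and name a count-based test, but they are not whole numbers, so no count model was run. Whether the quantification used strand is not given in the sources used here, and overlapping antisense genes cannot be told apart for this reason.

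From the FPKM, log2((FPKM + 1) of MYC / (FPKM + 1) of WT) was computed with a pseudocount of 1 for genes that averaged 1 FPKM or more. The pseudocount understates the change of low genes. No p-value was computed, since a group is 1 library, and calls are at 2-fold. What 1 read is worth was read off single-exon genes with 1 transcript of over 600 bases and under 0.3 FPKM, whose FPKM times length less 200 bases falls in steps: 41.9% to 50.6% of these values lay within 3% of a whole read, against 6% by chance. Reads were estimated with GENCODE M1 transcript lengths, matched by symbol (44 of the 45 genes), and ratios were given exact 95% Clopper-Pearson intervals. Coordinates and promoters are RefSeq's on GRCm38.p6, the files' build.

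Values are given in every library for Psmb5 to Psmb7, Psme1 to Psme4, Psmg1 to Psmg4, Psmb8 to Psmb10 and, in each lobe, the 3 genes with the highest and the 3 with the lowest log2 ratio. Psma7, Psmb1, Psmd1, Psmd10, Psmf1 and the named genes of other lists were chosen after their values were seen. The members and lists were chosen with earlier results of these data known. Alternatives were 4 other scalings, a pseudocount of 0.1, no filter or a minimum mean of 10 FPKM, a 1.5-fold threshold and the list without Psmc3ip. Genes of similar length and the list without Psme2b were added after seeing the data. Some genes of the lists are not reported here. The computations were tested on simulated data. Scripts ran under Python 3.11.15 (scipy 1.17.1, pandas 2.3.3, numpy 2.4.6, matplotlib 3.10.9).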

Additional observations from a re-analysis of the deposited data

Results flagged for a closer look

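A pair of cap genes went in opposite directions in different lobes, by at least 1.2-fold each way. The log2 ratio of Psme1 was -0.49 in VP, 0.71 in DLP and 0.41 in AP, so that VP less DLP was -1.20 and VP less AP was -0.90. The log2 ratio of Psme3 was 0.45 in VP, -0.28 in DLP and -0.33 in AP, so that VP less DLP was 0.74 and VP less AP was 0.78. These differences between lobes were not tested, since each group is 1 library, and the lobes of a genotype come from the same animal. The counting intervals exclude a ratio of 1 for both genes in each lobe, which covers the sampling of reads only.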

How the results depend on the processing

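No paired analysis was possible because each group is 1 library and each genotype 1 animal, whose lobes are not its replicates. For the same reason no library could be left out. The median log2 ratio of the proteasome genes followed the scaling: in VP it was 0.13 with size factors, 0.0203 with equal FPKM sums, -0.0162 with equal sums without the 20 highest genes (reversed) and 0.51 relative to Krt8 and Krt18. In DLP it was 0.0107 with equal sums without the 20 highest genes, -0.0594 relative to Krt8 and Krt18 (reversed) and 0.0536 against genes of similar length. In AP it was 0.0456 with size factors, 0.0370 against genes of similar length and 0.34 relative to Krt8 and Krt18. The median of all genes moved with it, and the gap between them stayed above 0 under every alternative (0.16 to 0.24 in VP, 0.05 to 0.17 in DLP, 0.03 to 0.16 in AP). The number at least 2-fold higher in VP was 5 of 45 relative to Krt8 and Krt18 (all genes 11.8%) and 7 at 1.5-fold (16.7%). In DLP it was 1 with a pseudocount of 0.1 (8.41%) and 5 at 1.5-fold (13.4%). Of 54 pairs of a named gene and a lobe, 42 kept their sign under every alternative run. WT AP has the fewest reads, and Psmg4 there the fewest of the genes (57.7). Its ratio in AP has the widest counting interval, with a half-width of 0.45 on the log2 scale against a median of 0.14.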
